A study of Mus musculus with 1931 samples.

Results

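The cells described here are the VE-like cells of Rosette-to-Lumen stage embryoids (RtL-embryoids), embryo-like aggregates made from mouse embryonic stem cells (ESCs). Wells 9 to 16 of each row on plates 3, 4 and 5 were taken as this population, and a well was kept when it had at least 2500 genes above 0 TPM (transcript abundance per cell, corrected for transcript length). That left 982 of 1149 3D wells, in a table of 1931 wells in all. Wells 9 to 16 made up 32.1% of the 982 kept cells, and 82.2% of the wells in that block were kept, with 35.2% of the kept ones on plate 3, 34% on plate 4 and the last 97 cells (30.8%) on plate 5. They were set against the kept wells 1 to 8 (32% of the 982 cells) and 17 to 24 (35.9%) of the same plates.

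Different ESC lines had been mixed to make the embryoids. The first was Kermit, which carries an Oct3/4-GFP reporter. The second was the 5-Factor line, with doxycycline-inducible Cdx2, Tfap2c, Eomes, Gata3 and Ets2, and the last was an mCherry-marked iGATA6 line with a lentiviral, inducible Gata6 in puromycin-selected clones. All 3D cells, whichever line they came from, saw doxycycline at 2 µg/ml and then a day without it. Hand-picked structures went into 1 pool, which was stained for CD40 and sorted as single cells, VE-like cells being the mCherry-positive ones without GFP and CD40. The labels give plate and well but not the gate, so the blocks of wells were checked against markers below. Since all 3D cells came from 1 pool, there are no replicates and no test between populations, and the plates show technical spread.

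The visceral endoderm is the epithelium that wraps the early epiblast and extraembryonic ectoderm. It takes up maternal proteins through large apical receptors, breaks them down in lysosomes, secretes carrier proteins such as apolipoproteins and transthyretin, and at its distal and anterior part releases inhibitors that pattern the epiblast. Its sister tissue, the parietal endoderm, is migratory and lays down Reichert's membrane, a thick basement membrane of laminin and type IV collagen. Both arise from primitive endoderm, in which GATA and SOX factors act.

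Levels are given as TP10k, that is TPM rescaled so that all genes of a cell sum to 10000. TPM are corrected for transcript length, so levels may be compared between genes, but they hold no read depth, and the number of genes found stands in for depth. The kept wells 9 to 16 had 2504 to 8233 genes with a median of 5348, against medians of 4823 in wells 1 to 8 and 5396 in wells 17 to 24. Plate 3 was the deepest, with medians of 6622 genes in wells 9 to 16 against 4913 on plate 4 and 4957 on plate 5, and shares of cells with a low gene were mostly highest there. Shares come with exact Clopper-Pearson 95% intervals, which cover counting error only.

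The 5 markers of the population were Amn and Cubn, which together form the cubam uptake receptor, the transcription factors Gata4 and Sox17, and Sparc, a secreted matrix protein. Amn was found in 94.3% of the cells (95% CI 91.1 to 96.6), Cubn and Gata4 in 98.1% each, Sox17 in 86.7% (95% CI 82.4 to 90.2) and Sparc in 99.7%. All 5 were found together in 81.9% of cells, 4 of them in 50 cells and 3 or fewer in 7. In wells 1 to 8 not one cell had 4 or 5 of them, which allows a share of up to 0.955%. In wells 17 to 24, 16 cells (4.53%, with 3.28%, 6.84% and 3.51% on plates 3, 4 and 5) had 4 or 5 of them.

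**Figure D1:**
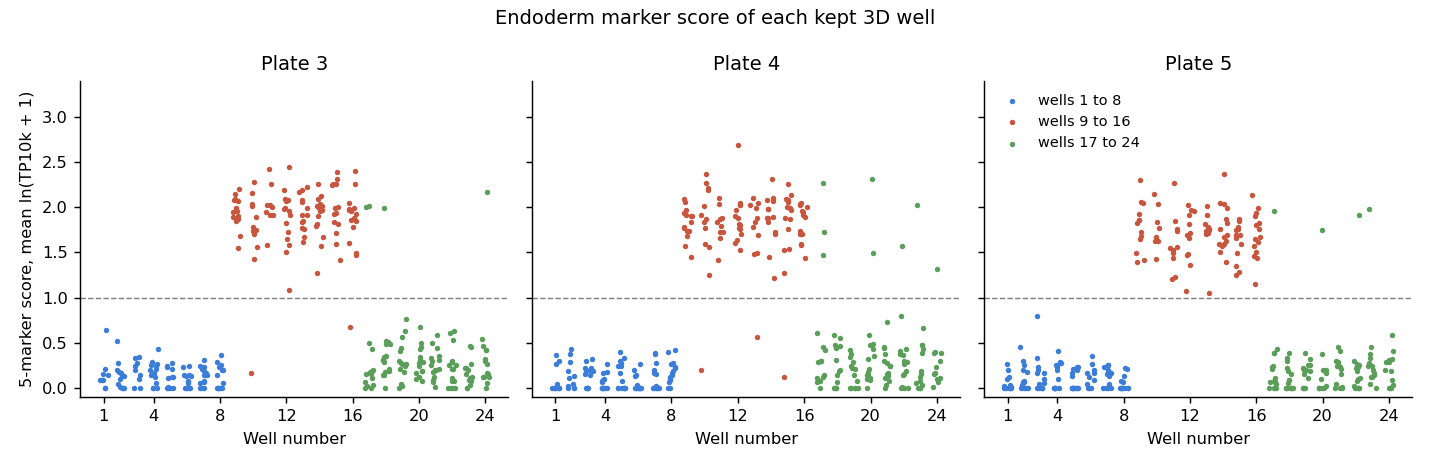
Mean ln(TP10k + 1) over Amn, Cubn, Gata4, Sox17 and Sparc in each kept 3D well (vertical axis) by well number (horizontal axis), 1 panel per plate, with a dashed line at 1. Wells 9 to 16 lie above the line except 5, and 16 wells 17 to 24 lie above it too.

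The score over the 5 markers, the mean of ln(TP10k + 1), had a median of 1.94 on plate 3, 1.88 on plate 4 and 1.71 on plate 5 in wells 9 to 16. Medians in the other blocks were 0.0871 for wells 1 to 8 and 0.197 for wells 17 to 24. Some wells went against their block. In wells 9 to 16, 5 cells scored under 1 (2 on plate 3, 3 on plate 4, none on plate 5), and 4 cells (1.27%) had the epiblast list (Pou5f1, Nanog, Gdf3, Tdgf1) or the extraembryonic ectoderm list (Cdx2, Elf5, Eomes, Tfap2c) highest. In wells 17 to 24, 16 cells (4.53%, 95% CI 2.61 to 7.26) scored 1.32 to 2.31, of which plate 4 held 8 and plates 3 and 5 held 4 each. Srgn was found in all 16, Cdx2 in none and Cd40, which encodes the surface protein stained for the extraembryonic ectoderm gate, in 6. By the rule of the highest list, which does not ask for a high score, 34.8% of wells 17 to 24 (95% CI 29.9 to 40.1) had the 5-marker list above both others, with 36.9%, 43.6% and 23.7% on plates 3, 4 and 5. No cell of wells 1 to 8 did. The 21 wells set apart by the score are called outlying, and levels in wells 17 to 24 include the 16 of them there unless said otherwise. Since the score is made of the 5 markers, leaving these wells out lowers those markers in wells 17 to 24 by construction. At the threshold itself, 5 wells with 2500 to 3000 genes scored 1.45 to 2.69 and 4 discarded wells with 2000 to 2500 genes scored 1.32 to 2.07.

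Extraembryonic ectoderm and fibroblast genes left little trace in wells 9 to 16, unlike Pou5f1 of the epiblast list. The summed mean level of the extraembryonic ectoderm list was 0.128 TP10k, against 2.71 in wells 17 to 24. A list of 6 fibroblast genes, for feeder cells, summed to 0.0288 TP10k, and Col1a1 was found in 1.59% of cells. The epiblast list summed to 4.68 TP10k against 27.1 in wells 1 to 8, and nearly all of that sum was Pou5f1, as described further below.

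A gene was called when its mean TP10k differed at least 4-fold in the same direction on each of the 3 plates and at least 25% of cells on one side or the other had the gene. Against the other 3D wells together, 210 of 8527 genes (2.46%) were higher in wells 9 to 16 and 2.59% were lower. Against wells 1 to 8 alone, 386 of 8500 genes (4.54%) were higher and 3.6% lower, and against wells 17 to 24 alone 180 of 8694 genes (2.07%) were higher and 2.84% lower. For calls against each of the other blocks at once, 25% of cells in any 1 of the 3 blocks was enough, and 1.46% of 8973 genes were higher and 1.17% lower, shares that became 1.85% and 1.49% of 8997 genes without the outlying wells. All of the genes called higher were also tested against each block alone, but 48 of those called lower were tested against 1 block only, since they were rare in wells 9 to 16 and in the other one. For the endoderm genes given both ways below, differences from wells 17 to 24 were smaller with the 16 wells in, for the 5 markers by construction. Since those wells were chosen by an endoderm score, this was close to built in for other endoderm genes too.

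Among the endoderm transcription factors, 4 of 9 were called higher than in both blocks (against 1.46% of all genes tested), and these were Gata4, Gata6, Sox7 and Sox17. Gata4 and Sox17 were also among the 5 markers, so their calls are not separate from the marker check. Gata4 averaged 3.17, 2.85 and 2.64 TP10k on plates 3, 4 and 5, against 0.0246 over all wells 1 to 8 and 0.412 in wells 17 to 24 (0.328 without the outlying wells). Its cell values ran from 0 to 9.67 with a median of 2.81. Gata6 averaged 0.763, 0.707 and 1.0 TP10k and was found in 89.8% of cells, against 0.637% and 15.3% in the other blocks. Gata6 values do not tell the transgene from the endogenous gene. Sox7 (87.3% of cells) and Sox17 (86.7%) were close to each other in share, and Sox17 fell to 0.297% of wells 17 to 24 once the outlying wells were left out. Sox17 is itself part of the score that set those wells apart, so a fall was built in.

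Later or hepatocyte-type factors were less even. Foxa2 was found in 56.5% and Hnf4a in 54.6% of cells, at 0.410 and 0.218 TP10k, while Foxa1 was found in 0.635%. At least 3 of Gata4, Gata6, Sox7 and Sox17 were found together in 93.7% of cells (95% CI 90.4 to 96.1), with 96.4%, 92.5% and 91.8% on plates 3, 4 and 5. Foxa2 and Hnf4a were found together in 34.3% of cells, with 57.7% on plate 3 and 21.5% and 21.6% on plates 4 and 5, in the order of gene detection for the first plate against the others.

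Genes of receptor-mediated uptake, the main textbook function of visceral endoderm, divided evenly. Of 10 such genes, 5 were called higher than in both blocks (Amn, Cubn, Lrp2, Lrpap1 and Dab2), each of them found in at least 94.3% of cells, and the other 5 were not. Over all genes tested the share called higher was 1.46%. Amn and Cubn were also among the 5 markers, so their calls are not separate from the marker check. Amn averaged 5.43, 5.48 and 4.09 TP10k on the 3 plates, against 0.00398 in wells 1 to 8 and 0.44 in wells 17 to 24 (0.0536 without the outlying wells). Its partner Cubn averaged 3.16, 3.07 and 3.95, and its cell values ran from 0 over a median of 3.10 to 11.9. No cell of wells 1 to 8 had more than 0.466 of Amn or 0.234 of Cubn, so the cells of wells 9 to 16 from the first quartile up lay above that whole block.

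Lrp2, or megalin, which carries cubam into the cell, averaged 1.61, 1.55 and 2.11 TP10k, 27.8-fold above wells 1 to 8 and 7.62-fold above wells 17 to 24 (17.5-fold without the outlying wells). Lrpap1, the chaperone of LDL-receptor family members, averaged 32.8, 30.8 and 38.3 TP10k, 13-fold and 15.2-fold above the other blocks (27.8-fold for the latter without the outlying wells). Dab2, the clathrin adaptor that binds these receptors, averaged 8.13, 7.18 and 8.99 TP10k and was found in 97.8% of cells, against 1.27% and 15.9% (11.9% without the outlying wells). Amn, Cubn, Lrp2 and Dab2 were found together in 94% of cells (95% CI 90.7 to 96.3), in no cell of wells 1 to 8 and in 16 cells of wells 17 to 24 (4.53%). The 4-gene set was near equal on the plates, at 94.6%, 94.4% and 92.8%.

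The rest of the uptake list differed less. Rab11fip5, an effector of recycling endosomes, was called against the pooled other wells at 0.293 TP10k. Folr1, a folate receptor, stood at 4.65 TP10k against 1.28 and 2.59. Clu (clusterin) was lower at 0.484 TP10k than in wells 17 to 24 (2.02), and Fcgrt was found in 6.98% of cells.

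GATA factors bind DNA at a short core, so the region around the transcript start was searched on both strands for the letters GATA with a single A or T before them and a single A or G after them. Windows of 300 bases (250 before and 50 after the start, RefSeq, GRCm38.p6) were given for 15 of the 18 genes looked up, which were the 5 markers and the genes ranked highest. Of those 15 genes, 3 held a match, namely Dab2, Tfpi and Ctsz. They are shown with the match in capitals, each running 5′ to 3′ from just upstream of the gene into its first transcribed bases, together with the window of Amn, which held none. Dab2 lies at chr15:6299539-6299838 on the plus strand, Tfpi at chr2:84476710-84477009 on the minus strand, Ctsz at chr2:174438990-174439289 on the minus strand and Amn at chr12:111270846-111271145 on the plus strand. Dab2 and Tfpi each had another window that is not shown. That of Dab2 (chr15:6386498-6386797) held no match, and that of Tfpi (chr2:84474125-84474424) held 2.
Dab2: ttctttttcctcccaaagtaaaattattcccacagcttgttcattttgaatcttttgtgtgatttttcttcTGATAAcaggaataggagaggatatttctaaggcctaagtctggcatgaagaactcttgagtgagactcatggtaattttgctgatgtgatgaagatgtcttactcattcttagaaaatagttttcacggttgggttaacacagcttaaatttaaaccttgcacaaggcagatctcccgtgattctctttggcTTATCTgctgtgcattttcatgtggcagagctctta
Tfpi: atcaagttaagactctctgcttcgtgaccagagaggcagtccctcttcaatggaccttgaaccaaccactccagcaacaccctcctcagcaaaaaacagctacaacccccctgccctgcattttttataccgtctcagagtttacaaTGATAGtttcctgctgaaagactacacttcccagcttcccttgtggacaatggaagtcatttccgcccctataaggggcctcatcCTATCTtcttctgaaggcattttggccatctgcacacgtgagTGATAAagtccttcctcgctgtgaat
Ctsz: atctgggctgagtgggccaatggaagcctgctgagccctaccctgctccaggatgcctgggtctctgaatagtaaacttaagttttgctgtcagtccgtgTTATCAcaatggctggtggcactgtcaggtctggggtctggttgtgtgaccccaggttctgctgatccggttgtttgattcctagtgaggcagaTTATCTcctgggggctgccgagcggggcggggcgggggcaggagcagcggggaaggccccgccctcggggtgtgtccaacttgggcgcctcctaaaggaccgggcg
Amn: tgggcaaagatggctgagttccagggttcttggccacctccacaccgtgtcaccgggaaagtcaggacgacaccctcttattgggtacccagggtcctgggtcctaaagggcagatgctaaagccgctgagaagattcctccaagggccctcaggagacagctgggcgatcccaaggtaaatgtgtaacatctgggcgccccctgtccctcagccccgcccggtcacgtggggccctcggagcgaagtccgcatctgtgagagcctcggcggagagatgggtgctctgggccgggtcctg
Across the genes called higher than in both blocks, 25 of 99 with a window held a match (25.3%), against 20.6% of 7153 tested genes with one and 18.1% of 83 genes called lower. Over all 27025 genes with a window the share was 33%. The share among the higher genes lay between these backgrounds, and a match is only a run of letters.

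What is taken up has to be degraded, and some lysosomal genes stood far above the other blocks. Of 14 lysosomal proteases and partners, all 14 were found in at least 50% of the cells. Calls took in 6 of them against the other 3D wells (2.46% of all genes tested) and 3 against both blocks (1.46%). The 3 were Ctsl, Ctsc and Ctsz, all cathepsins. Ctsl averaged 76.3, 61.3 and 61.6 TP10k, against 4.35 and 12.03 in the other blocks, and no cell of wells 9 to 16 was without it. Ctsz averaged 17.5, 17.8 and 18.03 TP10k, with little spread between plates. Lgmn, the protease legumain, stood at 12.8 TP10k and the membrane protein Lamp1 at 19.9, against 3.31 and 5.93 in wells 17 to 24. The ranked list added Npl, which degrades sialic acid, at 8.09 TP10k against 0.129 and 0.605, and Ifi30, a lysosomal thiol reductase, at 12.2 against 0.898 and 1.57.

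The secreted carriers of mature visceral endoderm were mostly missing. Of 14 carriers, 1 was called against both blocks (against 1.46% of all genes tested). Another 11 did not reach 25% of the cells on either side of the pooled comparison. The called one was Mttp, which loads lipid onto apolipoprotein B, at 0.483, 0.533 and 0.746 TP10k and in 81.3% of cells. Apom, called against the pooled wells, was found in 32.4%. Ttr (transthyretin) was found in 9.84% of cells (95% CI 6.79 to 13.7) at a mean of 0.272 TP10k, and its highest cell had 20.3. Apob was found in 8.57%, Apoa1 in 3.49%, Afp (alpha-fetoprotein) and Alb (albumin) in 0.635% each, and Ambp in no cell, which allows a share of up to 0.952%. One or more of Ttr, Apob, Apoa1, Apoa4 and Afp was found in 72 cells (22.9%, 95% CI 18.3 to 27.9), at 29.7%, 16.8% and 21.6% on the 3 plates. Apoe was the exception at 51.6 TP10k in every cell, but wells 1 to 8 had 30.4, a ratio of 1.70.

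Parietal endoderm features were present in the same cells. Of 10 parietal markers, 4 were called higher than in both blocks (against 1.46% of all genes tested). These were Sparc, Srgn, Pth1r and Tfpi. Sparc was also among the 5 markers, so its call is not separate from the marker check. Sparc averaged 72.1, 59.03 and 46.8 TP10k, with the lowest plate mean on plate 5 as for the 5-marker score, against 1.17 in wells 1 to 8 and 4.26 in wells 17 to 24 (2.32 without the outlying wells). Srgn (serglycin, a proteoglycan core protein) ranked first of all genes by the smaller of its 2 differences. It averaged 29.8, 29.1 and 28.3 TP10k, its first quartile over cells was 20.6, and no cell of wells 1 to 8 had more than 1.17. Leaving out the outlying wells lowered its mean in wells 17 to 24 from 1.67 to 0.229.

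Pth1r, the receptor for parathyroid hormone-related protein that marks the step from primitive to parietal endoderm, averaged 1.88, 1.97 and 1.72 TP10k and was found in 93% of cells, against 1.59% and 25.2% (22% without the outlying wells). Tfpi, an inhibitor of tissue factor, averaged 7.34, 8.07 and 7.49. Snai1, a repressor of epithelial genes, was found in 40.3% of cells, 61.3% on plate 3 and 33.6% and 23.7% on the others, and was called against the pooled wells alone. Other members were low or shared with the neighbouring block. Thbd (thrombomodulin) was found in 0.952% of cells, Stra6 in 9.52% and Vim in 14.6%. In all, 1 of the 10 parietal markers was called lower than in wells 17 to 24 (against 2.84% of all genes tested). Plat, or tissue plasminogen activator, stood at 0.527 TP10k against 0.581 in wells 17 to 24, and Fst at 0.268 against 0.627. The list therefore split, with high matrix and receptor genes beside missing Thbd and low Vim.

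**Figure D2:**
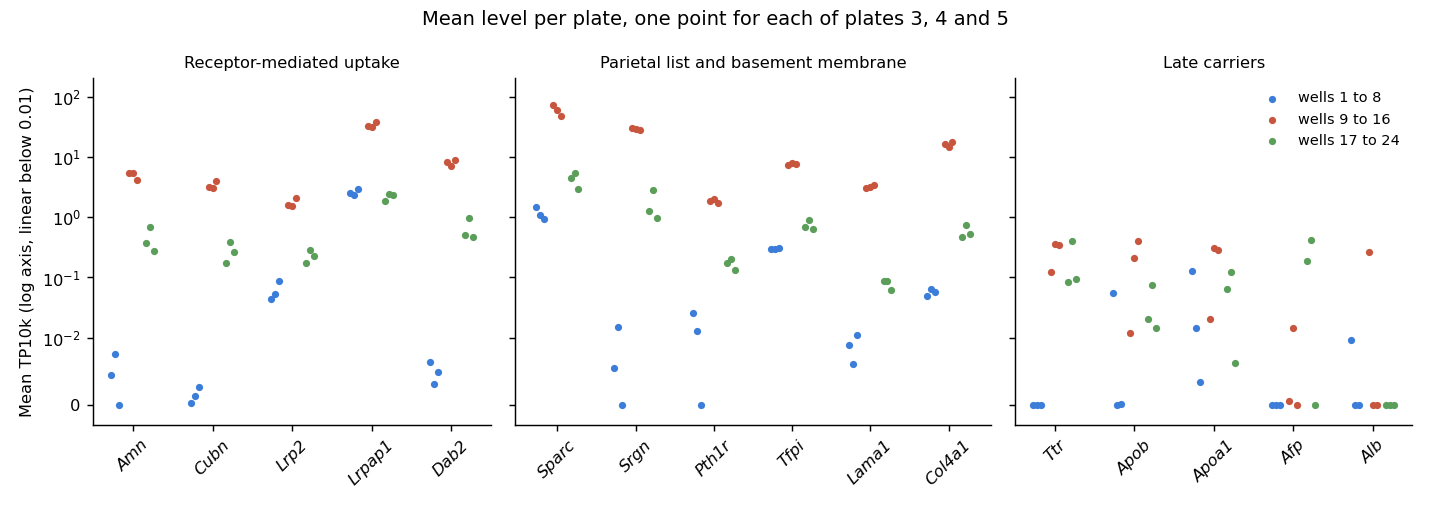
Mean TP10k (vertical axis, logarithmic above 0.01 and linear below) of uptake genes, parietal and basement membrane genes, and late carriers in each block of wells, 1 point for each of plates 3, 4 and 5. In the first and second panels every point of wells 9 to 16 lies above every point of the other blocks for the same gene, and in the third they overlap.

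Basement membrane genes, which both endoderm types use, came next. Of 11 components, 6 were called higher than in both blocks and 1 lower (against 1.46% and 1.17% of all genes tested). Col4a1 averaged 16.3, 14.4 and 17.98 TP10k and its partner Col4a2 3.55, 3.35 and 3.45, against 0.574 and 0.128 in wells 17 to 24 (0.0958 and 0.029 without the outlying wells). The chains of laminin-111 were all called. Lama1 stood at 3.17 TP10k, Lamb1 at 5.86 and Lamc1 at 9.22, against 0.00870, 0.188 and 0.650 in wells 1 to 8. Hspg2 (perlecan) was the sixth, at 1.08. Lama5, the alpha chain of laminin-511, was lower than in the neighbours at 0.406 TP10k against 0.934 and 1.38. Col18a1 was called lower, at 0.016 TP10k against 1.20 and 0.276. Nid1, Nid2 and Agrn were higher than in either block on average without reaching 4-fold in both.

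The enzymes that hydroxylate and fold collagen were high too. All 11 measured were found in at least 50% of the cells, 7 were called against the pooled wells and 3 (P4ha2, Plod2 and Serpinh1) against both blocks. The shares called higher over all genes tested were 2.46% and 1.46%. Serpinh1, the collagen chaperone HSP47, averaged 6.45, 5.32 and 4.86 TP10k against 0.337 and 0.439. P4ha2, a prolyl 4-hydroxylase chain, averaged 4.00, 4.18 and 4.09 against 0.182 and 0.224, and Plod2, a lysyl hydroxylase, averaged 1.34. Calr, a chaperone of the endoplasmic reticulum, stood at 16.3 TP10k against 2.58 and 3.67.

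The question that follows is whether the visceral and the parietal genes belonged to the same cells. Amn and Pth1r were found together in 89.5% of cells (95% CI 85.6 to 92.7), Amn without Pth1r in 15 cells, Pth1r without Amn in 11 and neither in 7. Every cell with Amn also had Srgn, which only 4 cells lacked. Amn, Cubn, Lrp2, Dab2, Pth1r and Srgn were all found in 89.5% of cells, at 92.8%, 86% and 89.7% on the plates, in none of wells 1 to 8 and in 15 of wells 17 to 24. Genes found in nearly all cells have to be found together in most of them. These high shares therefore do not show that visceral and parietal genes go together. Pairs with a less common gene were found in fewer cells, Amn with Plat in 55.9%, with Snai1 in 37.8% and with Stra6 in 8.57%. Pth1r was found with Hnf4a in 52.4%, with Ttr in 9.21% and with Apob in 8.25%. By the protocol each well held a single sorted cell, no doublet caller was run, and the part of wells with 2 cells was not tested.

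**Figure D3:**
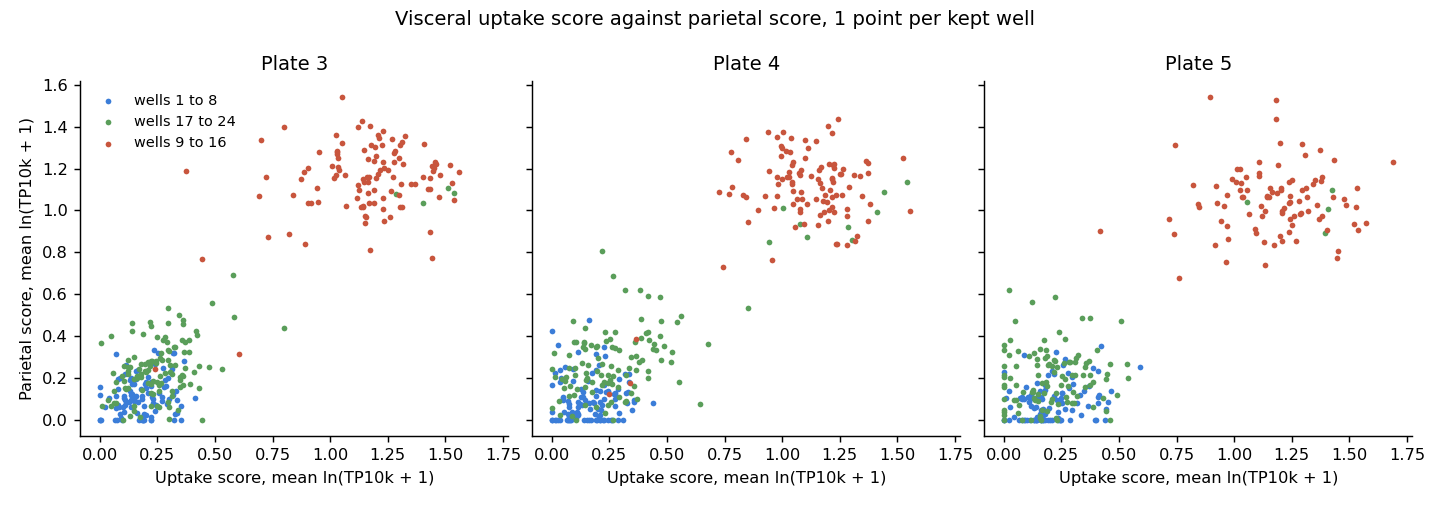
Parietal score against uptake score, each the mean ln(TP10k + 1) over its 10 genes, with 1 point per kept well and 1 panel per plate. Most wells 9 to 16 lie in 1 cloud that is high on both axes, and the outlying wells of this block lie nearer the origin. Another 3 cells of the block (2 on plate 3, 1 on plate 5) have a low uptake score. Parietal scores of the 2 on plate 3 are 1.19 and 0.768, the latter the lowest there apart from the outlying wells. The outlying wells outside the block are high on both axes.

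Within wells 9 to 16, the uptake and parietal scores were close to unrelated from cell to cell. Without the cells scoring under 1, the Pearson correlation between them was 0.0915 on plate 3 (all but 2 of its cells), -0.0827 on plate 4 (all but 3) and 0.0496 on plate 5 (n = 97). Apart from the cells scoring under 1, uptake scores ran from 0.372 over a median of 1.17 to 1.69 and parietal scores from 0.677 over 1.11 to 1.54. On the uptake score 3 cells lay under 0.5 times the median, and on the parietal score none did. With the low-scoring cells the correlation was 0.328 and 0.414 on plates 3 and 4. The parietal score went with the basement membrane score at 0.539, 0.540 and 0.528, whereas the uptake score and the basement membrane score stood at -0.0333, -0.133 and -0.0966. Uptake went with lysosomal genes at 0.455, 0.563 and 0.453. Col4a1 and Col4a2 were correlated at 0.760, 0.616 and 0.599. These are descriptions over cells that share a pool, a plate and a detection rate, and no list shares a gene with the one it is set against.

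As a summary of both features, the median difference in mean ln(TP10k + 1) from the other 3D wells was 0.0566 over the uptake and carrier lists together, 0.757 over the uptake list alone and 0.0367 over the carriers. Over the parietal list it was 0.178, with 0.248, 0.166 and 0.111 on plates 3, 4 and 5, and over the basement membrane list 0.751. The median over all 8527 genes tested was -0.00639.

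Pluripotency genes divided in these cells, and some stayed at a clear level. Pou5f1 (Oct3/4) averaged 4.79, 4.60 and 4.15 TP10k and was found in 90.8% of cells (95% CI 87 to 93.7). That was 0.320 of the level in wells 1 to 8 (14.2 TP10k) and 13.7-fold the level in wells 17 to 24. The lower and upper quartiles over cells were 1.65 and 6.39 TP10k. Dppa5a, an RNA-binding protein of ESCs, averaged 71.3, 70.3 and 70.8 TP10k, in 99.4% of cells, against 237.7 and 3.85. Utf1, a chromatin-bound ESC factor, was found in 81.3% of cells and Zfp42 (Rex1) in 88.3%. Pou5f1 and at least 3 of Gata4, Gata6, Sox7 and Sox17 were found together in 87.6% of cells (95% CI 83.5 to 91.05).

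Several pluripotency genes were close to absent. Nanog stood at 0.0845 TP10k against 3.83 in wells 1 to 8, Sox2 at 0.0229 against 1.05, Tdgf1 at 0.0324 against 7.51 and Fgf4 at 0.00352 against 1.12. Sox2 and Esrrb were 2 of the 10 genes of the list that were called lower than in both blocks (against 1.17% of all genes tested). Tdgf1 was found in 3 cells on plate 4 and in no cell on the other plates, and 0.323% of cells had it without the outlying wells. Klf4 was higher than in either block, at 0.493, 0.409 and 0.596 TP10k against 0.138 and 0.0656, and was called against the pooled wells. Pou5f1 and Dppa5a were correlated across cells at 0.527, 0.470 and 0.394 on the 3 plates without the cells scoring under 1. Among the epiblast markers, then, 1 of 4 was common in wells 9 to 16 while Gdf3 (4.44% of cells) and Tdgf1 were rare. Material from epiblast cells in these wells was not tested beyond those values.

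**Figure D4:**
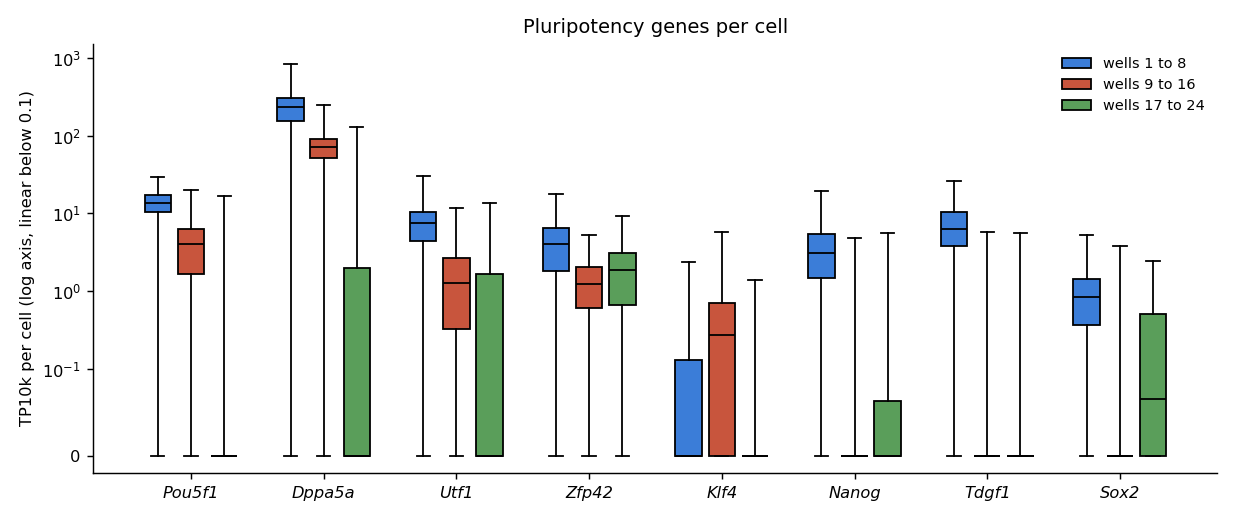
TP10k per cell (vertical axis, logarithmic above 0.1 and linear below) of 8 pluripotency genes in the 3 blocks of wells, with boxes from lower to upper quartile, a line at the median and whiskers to the lowest and highest cell. In wells 9 to 16 Pou5f1, Dppa5a, Utf1 and Zfp42 have medians above 1, and Nanog, Tdgf1 and Sox2 have medians at 0.

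Genes of the distal and anterior visceral endoderm, the signalling region that secretes antagonists, were found in part. Of 12, 2 were called higher than in both blocks (against 1.46% of all genes tested). Hesx1, a homeodomain repressor, was found in 61.3% of cells at 0.828 TP10k, against 4.14% and 7.08%. Dkk1, a WNT antagonist, was found in 66.3% at 0.653 TP10k, against 1.91% and 9.35%. Hhex was found in 44.1% of cells. Lefty1 and Nodal, a NODAL antagonist and its ligand, were found in 14.9% and 19% of cells, against 59.9% and 56.4% in wells 1 to 8, and 1 or both in 79 cells (25.1%, 95% CI 20.4 to 30.2). Cer1 was found in 2.22%, Otx2 in 0.317% and Gsc in no cell. Otx2 was called lower, but through wells 1 to 8 alone (53.5% of cells), since it was also rare in wells 17 to 24 (5.38%). Across cells the score of this list went with the uptake score at 0.293, 0.127 and 0.44 on plates 3, 4 and 5 and against the parietal score at -0.229, -0.214 and -0.244, again without the cells scoring under 1. Correlations of that size in sparse genes are no finding.

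**Figure D5:**
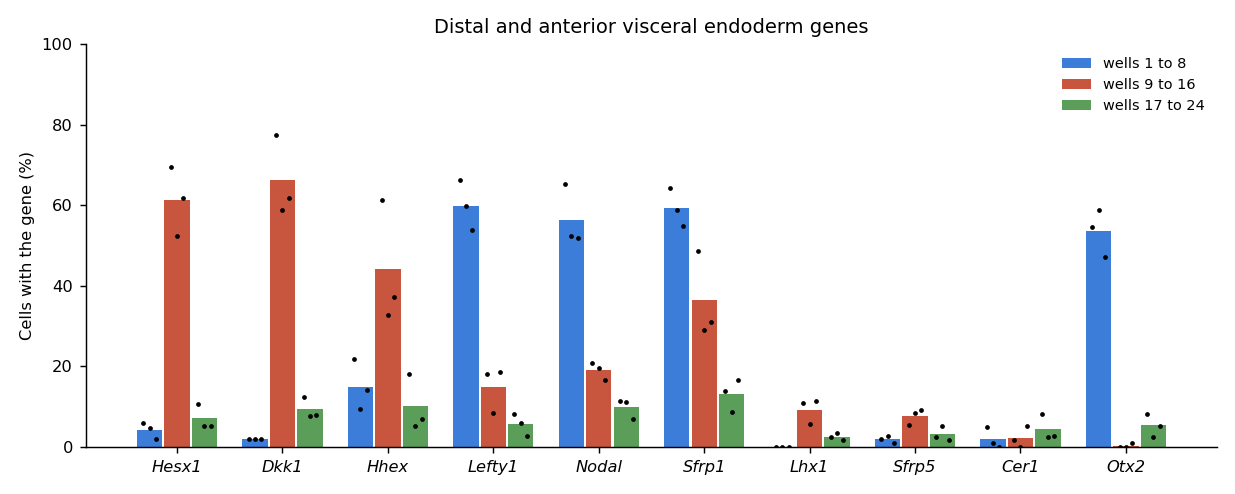
Share of cells with each of 10 distal and anterior visceral endoderm genes (vertical axis, percent) in the 3 blocks of wells, with bars for all plates and black points for plates 3, 4 and 5 from left to right. Hesx1, Dkk1 and Hhex have their tallest bars in wells 9 to 16, and Lefty1, Nodal, Sfrp1 and Otx2 in wells 1 to 8.

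Of 13 ligands and receptors, 3 were called higher and 1 lower than in both blocks (against 1.46% and 1.17% of all genes tested). Pdgfra, the PDGF receptor of primitive endoderm, was found in 94.6% of cells at 0.806 TP10k, against 1.59% and 7.37%. Its ligand Pdgfa was lower than in wells 1 to 8, at 0.219 against 0.704 TP10k. Ihh, the hedgehog ligand of visceral endoderm, was found in 68.3% of cells at 0.461 TP10k, against 0.000863 and 0.0229. Among the FGF receptors, Fgfr3 was called higher at 0.182 TP10k and Fgfr1 called lower at 0.0387 against 0.557 and 0.945, while Fgfr2 (0.430) lay between the other blocks. Bmp2 was found in 21% of cells and Bmp4 in 2.54%.

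Epithelial genes gave no call against both blocks among 11. Cdh1 (E-cadherin) was found in 90.8% of cells at 0.666 TP10k, between 0.341 and 1.63, and Cdh2 (N-cadherin) in 2.54%. Keratins Krt8 and Krt18 stood at 2.07 and 1.05 TP10k, under the 5.09 and 4.77 of wells 17 to 24. Of 10 proliferation genes, Ccnd1 (cyclin D1) was called lower than in wells 1 to 8, at 0.00669 TP10k against 0.671, while in wells 17 to 24 it stood at 0.0388 in 7.37% of cells, too few for a call against that block alone. Mki67 and Top2a were found in 88.9% and 89.2% of cells. No gene of the trophoblast (9), mesoderm and definitive endoderm (6) or stress (6) lists was called against both blocks. Over all genes tested, 1.46% were called higher and 1.17% lower. In the pooled comparison only 4, 1 and 4 of them were found in enough cells to be tested, which left few calls possible. Against wells 17 to 24 alone, 4 trophoblast genes were called lower. Against wells 1 to 8 alone, 1 mesoderm and definitive endoderm gene was called lower and 2 stress genes higher. Against the pooled wells, 1 trophoblast gene and 1 mesoderm and definitive endoderm gene were called lower. Atf3 of the stress list was called higher than the pooled wells, at 0.354 TP10k.

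Genes lower in wells 9 to 16 than in both other blocks were led by Ifitm2 and Ifitm1, interferon-induced membrane proteins. Ifitm2 averaged 3.41, 2.91 and 2.87 TP10k against 26.7 and 12.8. Ifitm1 was found in 1.90% of cells, against 92.4% and 56.4%. Cldn4, a tight junction claudin, was found in 2.54% against 80.9% and 73.4%. Meg3, a maternally expressed imprinted RNA, was found in 2.86% against 41.1% and 50.7%. Ldhb, a lactate dehydrogenase chain, stood at 0.620 TP10k against 15.6 and 3.44, and Slc2a1, the glucose transporter GLUT1, at 0.676 against 2.36 and 3.13 with no call. Most of the others ranked here, Prdx1, Calm2, Bax, Hat1, Fdps and Paics among them, were lower on each plate without reaching 4-fold, and Hmga1b may share reads with a close copy of the gene.

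Among genes that varied most from cell to cell, Mt1 (a metallothionein) ran from 0 over a median of 13.5 to 155.2 TP10k, with plate medians of 15.5, 20.3 and 8.33. Spp1 (osteopontin) had a median of 2.91 and a highest cell of 110. Car4, a membrane carbonic anhydrase, had quartiles of 1.73 and 8.68 and was called higher than in both blocks. S100a1 averaged 6.93 TP10k, against 0.258 and 1.64. Others on that list were small nucleolar RNAs within host genes (Snord65, Snord34) or genes with near-identical copies, whose values are uncertain.

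For comparison, the kept iXEN cells, iGATA6 ESCs treated with doxycycline in flat culture, had a median of 8699 genes, so shares are not on the same footing. These cells were on another plate and were grown in XEN cell medium, so culture form, medium and plate cannot be told apart. They had 2.04 TP10k of Ttr in 51.8% of cells, 1.76 of Apom and 17.7 of Cldn6, against 0.272, 0.401 and 4.77 in wells 9 to 16. Srgn went the other way, at 15.7 against 29.1 TP10k.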

How the data were processed

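Single cells were sorted into plates and libraries were made with Smart-seq2. The authors mapped reads with kallisto to GRCm38 with Gencode transcripts, summarised them per gene as TPM, left out mitochondrial, ribosomal and pseudogenes by their own filter, and deposited 1 table of 20999 genes with 1 column per well. The TPM values deposited by the authors hold no read counts, so depth and counting error per gene are unknown. Columns of ESC and iTSC cultures (600) were not used, and no 2 kept 3D columns were identical. TPM of each well were rescaled to 10000 and, for scores, ln(TP10k + 1) was taken (pseudocount 1). Wells under 2500 genes above 0 TPM were left out, which kept 315 of 383 wells 9 to 16 (111, 107 and 97 on plates 3, 4 and 5), 314 wells 1 to 8, 353 wells 17 to 24 and 141 iXEN cells; percents of cells are of these numbers. A gene was called past 4-fold on each of the 3 plates when found in at least 25% of cells of either side. This gave 210 higher and 221 lower genes against the other 3D wells and 131 and 105 against both blocks (155 and 196 with a 10% minimum). No model was fitted. The rule was tested on simulated data, with changes well past 4-fold in common, well expressed genes only. Rarer or weaker genes and smaller changes were not covered by it. Genes named are those of 19 lists, 15 ranked in each direction by the smaller of the differences from wells 1 to 8 and from wells 17 to 24, and the 10 with the highest spread; some of these genes are not reported here. The members, lists and rules were chosen with earlier results of these data known. Promoter windows were taken from RefSeq and gene spans from Gencode. Python 3.11.15, numpy 2.4.6, pandas 2.3.3 and scipy 1.17.1 were used. Alternatives are in the closing section.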

Additional observations from a re-analysis of the deposited data

Results flagged for a closer look

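A trace of the population was seen in wells that no comparison used. Of 68 wells 9 to 16 with fewer than 2500 genes above 0 TPM, 11 had 3 or more of Amn, Cubn, Gata4, Sox17 and Sparc (16.2%, 95% CI 8.36 to 27.1). None of 68 discarded wells 1 to 8 (a count of 0 that allows up to 4.41%) and none of 31 discarded wells 17 to 24 (up to 9.68%) had as many. The interval overlaps that of wells 17 to 24, which reaches 11.2%. The discarded wells 9 to 16 had a median of 24 genes.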

How the results depend on the processing

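No paired analysis was possible because all 3D cells came from 1 pool and well numbers pair no samples. Of the genes tested, 2.46% were at least 4-fold higher than in the other 3D wells and 1.46% than in both blocks, and their numbers stayed within 1.5 times under each alternative run. With genes found in at least 10% of cells, 483 genes were lower than the other 3D wells (4.48% of those tested, 2.59% as reported) and 1.75% lower than both blocks (1.17%). With 1 plate left out at a time the shares ranged from 2.55 to 2.79% higher and 2.78 to 3.11% lower than the other 3D wells, and from 1.6 to 1.82% and 1.44 to 1.69% against both blocks. The median difference became 0.295 over the visceral lists and 1.31 over the parietal list with ln(TPM + 1), a scale on which low genes weigh more (0.426 and 1.89 with log2, the same values in another base). It ranged from 0.0484 to 0.0762 and from 0.140 to 0.208 with 1 plate left out. Without wells whose markers go against their block, which leaves out 34.8% of wells 17 to 24 and 4 of wells 9 to 16, Cubn and Gata4 were found in 99.4% of wells 9 to 16 each, and without outlying wells, an alternative chosen after seeing the data, in 99.4% and 99.7%. Both alternatives drop wells 9 to 16 that are low for the 5-marker list, which holds Cubn, Gata4 and Sparc. A rise in the shares of these genes was therefore built in. Sparc was found in 100% without outlying wells, with at least 4000 genes per cell and, as the highest value with 1 plate left out (lowest 99.5%), without plate 3. The number of wells 9 to 16 with another list highest ranged from 1 (without plate 4) to 4. No called named gene, of 72, changed sign under any of 8 alternatives. A call asks for at least 4-fold in the same direction on each plate, so a change of sign was unlikely from the outset. Over all named genes, called or not, the number of values that changed sign ranged from 0 (genes counted from 1 TPM) to 10 (without plate 4). What limits the values of this section is the single pool, the absence of read counts and the deeper plate 3.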
